A study of Homo sapiens with 32 samples.

Results

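The E2F transcription factors and their DP partners were followed as 10 genes, E2F1 to E2F8, TFDP1 and TFDP2. They were chosen by name, with earlier results of these data known, out of 48804 genes in the count table. They were measured in MDA-MB-468, an established human triple-negative breast cancer line. Cells received PBS (control), 0.5 µM salinomycin (Sal, a polyether antibiotic), 15 µM dasatinib (Das, an inhibitor of Src family kinases), or both drugs together (S + D, labelled 15.5 µM), and RNA was taken after 24 h or 72 h. Each of the 8 groups had 4 libraries labelled as biological replicates, 3 numbered and 1 unnumbered, so that 32 libraries were compared. All groups are the same cell line, and no second line was sequenced.

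E2F proteins bind DNA mostly as dimers with a DP protein, and pocket proteins of the retinoblastoma family hold them in check until cyclin-dependent kinases phosphorylate the pocket proteins late in G1. E2F1, E2F2 and E2F3 are known as activators of the genes for DNA replication and S-phase entry, E2F4 and E2F5 as partners of the pocket proteins RBL1 (p107) and RBL2 (p130) in repressor complexes of resting cells, and E2F6 as a repressor that acts in a Polycomb complex without pocket proteins. E2F7 and E2F8, the atypical members, bind DNA without a DP partner and repress E2F targets later in S phase. Several of the genes are themselves E2F targets and are transcribed mainly in cycling cells. In bulk RNA, fewer cells in a phase of the cycle and less of a transcript per cell cannot be told apart.

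Total counts lay between 25692561 and 42769687 per library. The unnumbered libraries of the different groups deviated together from their group means, so values from the 3 numbered libraries per group are given beside the pooled ones where they change the call of a member. The unnumbered set has 1 library per group, too few for a value of its own. Replicate 3 of Das at 72 h lay near the control libraries for most members. The Das differences from control at 72 h that moved most without it are also given without it. That library was singled out after seeing the values. EGFR, which this line carries at high level, stood at 2790 to 5920 CPM (counts scaled to a common library size) and the epithelial genes EPCAM and CDH1 above 195 CPM in every library. The progesterone receptor gene PGR reached at most 0.0895 CPM and the oestrogen receptor gene ESR1 3.64 to 12 CPM. Of the markers of other cell types, PTPRC, CD3E and LUM stayed at or below 0.149 CPM, and COL1A1 lay between 18.2 and 120 CPM.

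The promoters of the activators carried matches to the E2F site, which are printed because they are the sequences through which E2F proteins can bind the genes of their own family. The last 100 bases before the start site are given for 5 members, from RefSeq on GRCh38.p14, with matches in capitals. The spellings searched on both strands over 250 bases were TTTCCCGC, TTTCGCGC, TTTGCCGC and TTTGGCGC, any of which occurred in 2.79% of 35116 such windows.
E2F1 (chr20:33686386-33686485, minus strand): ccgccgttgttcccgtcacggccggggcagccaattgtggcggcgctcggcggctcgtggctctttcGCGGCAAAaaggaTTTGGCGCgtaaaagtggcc
E2F2 (chr1:23531234-23531333, minus strand): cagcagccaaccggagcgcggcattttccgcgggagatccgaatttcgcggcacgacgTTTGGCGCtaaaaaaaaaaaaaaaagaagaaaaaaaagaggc
E2F3, first start site (chr6:20401779-20401878, plus strand): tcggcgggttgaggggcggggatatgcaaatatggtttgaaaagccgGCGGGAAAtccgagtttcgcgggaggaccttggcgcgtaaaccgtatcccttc
E2F4 (chr16:67192055-67192154, plus strand): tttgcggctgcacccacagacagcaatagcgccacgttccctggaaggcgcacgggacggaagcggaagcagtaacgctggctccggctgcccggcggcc
E2F7 (chr12:77065570-77065669, minus strand): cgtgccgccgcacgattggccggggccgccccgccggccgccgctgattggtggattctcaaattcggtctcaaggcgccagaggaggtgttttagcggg

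E2F1 held 2 matches, and E2F2, the first start site of E2F3 and TFDP1 held 1 each. The 250 bases of E2F4, E2F6, E2F7 and TFDP2 held none of these 4 spellings. E2F5 and E2F8 were not matched to a window. CCAAT, found on either strand in 32% of all windows, was matched 3 times in E2F1, 4 times in E2F3 over its start sites, 4 times in E2F7 and 2 times in TFDP2. The TTTGAA element of cell cycle genes, in 13.3% of windows, was matched in E2F3 and at 2 start sites of TFDP2, and the E-box CACGTG, in 6.34% of windows, only at the second start site of E2F3. A match is a description of the letters in the window and no measure of binding.

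Levels of different genes were compared as CPM per kilobase of merged exons. The order of genes depends on these lengths, which come from an annotation that may not be the one used for counting. In control cells at 72 h, TFDP1 was the most abundant member at 71.9 ± 3.68 CPM per kb (SD, n = 4). E2F1 followed at 35.2 ± 4.08, E2F2 at 22.8 ± 1.89, E2F3 at 16.2 ± 2.63 and E2F4 at 14.3 ± 1.46 CPM per kb, where the libraries of E2F3 and E2F4 overlapped. E2F8 stood at 9.15 ± 0.91 and TFDP2 at 7.03 ± 0.563, and E2F7, E2F6 and E2F5 were the lowest at 3.15 ± 0.331, 2.73 ± 0.498 and 1.91 ± 0.19 CPM per kb. E2F7 and E2F6 overlapped, and the other neighbours in this order did not.

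**Figure D1:**
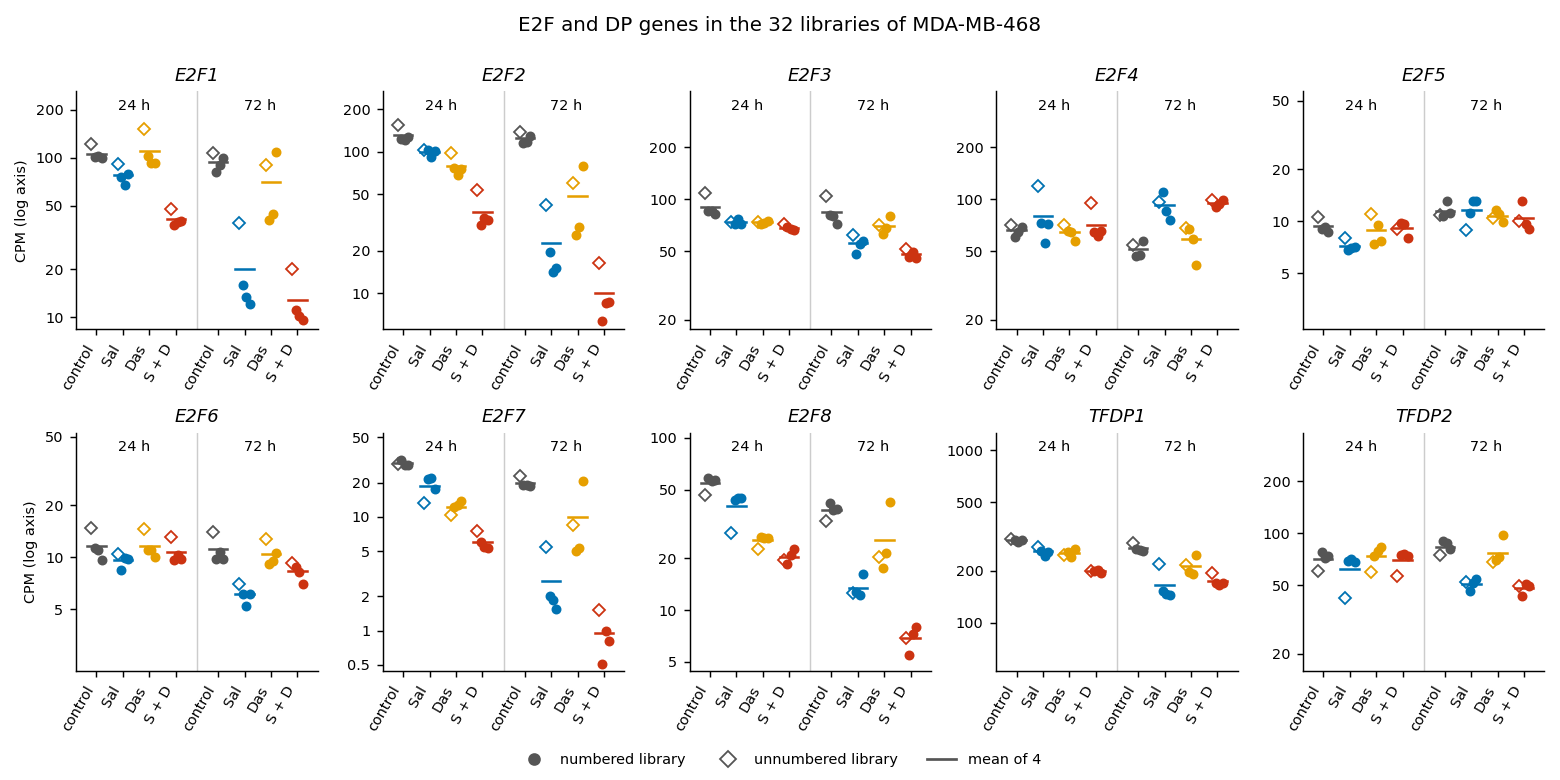
Each panel plots 1 gene in CPM on a log axis, for the 4 treatments at 24 h and at 72 h. Filled circles are numbered libraries, open diamonds the unnumbered library and bars the mean of 4. E2F1, E2F2, E2F7 and E2F8 were lowest with S + D at 72 h (means 12.8, 10, 0.957 and 6.89 CPM), E2F4 was higher with Sal and with S + D at 72 h, and 1 Das library at 72 h, replicate 3, sat near the control in most panels.

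E2F1 (ENSG00000101412, GRCh37 chr20:32263283-32274191, minus strand), the activator known best for driving S-phase entry, fell with Sal and with S + D at 72 h. Its level was 107, 82, 89.7 and 100 CPM in the control libraries at 72 h, in the order unnumbered, replicate 1, 2 and 3. With Sal it was 38.9, 16, 13.5 and 12.2 CPM, and with S + D 20.2, 11.1, 10.2 and 9.69 CPM. Every library of either treatment lay below every control library, and the unnumbered one was the highest of each. With Das the values spread from 40.5 to 108 CPM and overlapped the control, with replicate 3 above it. The log2 fold change was −2.24 with Sal (SE 0.38, adjusted p = 5.42e-05) and −2.9 with S + D (SE 0.39, adjusted p = 4.6e-06), a ratio of mean CPM of 7.4 between control and S + D. With Das it was −0.42 (95% interval −1.18 to 0.33, adjusted p = 0.385), and −0.69 without replicate 3 (adjusted p = 0.146).

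At 24 h E2F1 stood at 122, 101, 102 and 99.2 CPM in the control and at 48.1, 37.9, 39.9 and 40.4 CPM with S + D, without overlap. It was 91.4, 75.5, 67.6 and 79.2 CPM with Sal, below all controls. The Das libraries, at 151, 103, 92.6 and 92.9 CPM, overlapped the control range. The unnumbered Das library lay above all controls and its replicates 2 and 3 below them. The fall with S + D was −1.32 on the log2 scale (SE 0.15, adjusted p = 2.67e-06). With Sal the difference of −0.45 had an adjusted p of 0.0468, and of 2.41e-05 in the numbered libraries alone. With Das it was 0.07 (adjusted p = 0.788).

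E2F2 (ENSG00000007968, GRCh37 chr1:23832930-23857725, minus strand), the second activator, was the only member called lower with Das at both times. In control cells at 72 h it was 137, 115, 118 and 129 CPM, and with Das 60.2, 25.7, 29.3 and 79 CPM. It was 42, 19.6, 14.1 and 15.1 CPM with Sal, and 16.4, 6.37, 8.51 and 8.71 CPM with S + D. All 12 drug libraries lay below all controls, and the S + D group had the lowest values. The log2 fold changes were −2.47 with Sal (SE 0.39, adjusted p = 2.89e-05), −1.36 with Das (SE 0.37, adjusted p = 0.00982) and −3.65 with S + D (SE 0.41, adjusted p = 7.36e-07). The Das call was lost on leaving out any of 7 of the 8 libraries, with adjusted p from 0.011 to 0.0375. Without the eighth, replicate 3 of Das, E2F2 was at −1.69 (adjusted p = 0.00203).

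At 24 h E2F2 was 155, 124, 122 and 127 CPM in the control, 98.1, 76.5, 68.5 and 75.3 CPM with Das, and 54, 30.1, 33.9 and 32.7 CPM with S + D. The 3 groups did not overlap. It fell by 0.71 on the log2 scale with Das (SE 0.16, adjusted p = 0.00392) and by 1.77 with S + D (SE 0.16, adjusted p = 4.1e-07). The Das call was lost on leaving out any of 5 of its 8 libraries, with adjusted p from 0.0104 to 0.0171, and in a fit of all 32 libraries (adjusted p = 0.0919). With Sal, at 103, 103, 91.4 and 101 CPM, E2F2 lay below all controls with a difference of −0.41 (adjusted p = 0.0961, and 0.000412 in the numbered libraries).

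E2F3 (ENSG00000112242, GRCh37 chr6:20402110-20493945, plus strand), the remaining activator, fell with Sal and S + D at 72 h by smaller amounts than E2F1 and E2F2. It was 104, 80.8, 79.7 and 72.2 CPM in control cells at 72 h, 62, 48.2, 55.2 and 57.2 CPM with Sal, and 51.3, 45.9, 49.2 and 45.8 CPM with S + D. Both drug groups lay below the control without overlap, while Das, at 62.9 to 79.4 CPM, overlapped it. E2F3 fell by 0.61 with Sal (SE 0.12, adjusted p = 0.000248) and by 0.82 with S + D (SE 0.12, adjusted p = 1.23e-05) on the log2 scale, and the difference with Das was −0.26 (adjusted p = 0.0963). At 24 h E2F3 fell by 0.37 with S + D (SE 0.08, adjusted p = 0.00198). Sal, at 71.6 to 76.9 CPM, and Das, at 72 to 74.4 CPM, also lay below all 24 h controls at 82.2 to 108 CPM. Their differences were −0.31 (adjusted p = 0.0208) and −0.28 (adjusted p = 0.0216), and in the numbered libraries −0.18 (adjusted p = 0.00533) and −0.17 (adjusted p = 0.0049).

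E2F4 (ENSG00000205250, GRCh37 chr16:67226058-67232821, plus strand), the pocket protein partner that is abundant in resting cells, was the one member that rose. In control cells at 72 h it was 54.5, 47, 47.3 and 57.4 CPM, against 96.7, 111, 85.6 and 76.3 CPM with Sal and 99.2, 90.9, 93.6 and 98.8 CPM with S + D. All 8 of those drug libraries lay above all 4 controls. The log2 fold change was 0.82 with Sal (SE 0.15, adjusted p = 0.00011) and 0.87 with S + D (SE 0.15, adjusted p = 5.95e-05), a ratio of mean CPM of 1.79 and 1.85. With Das the libraries ran from 41.4 to 68.6 CPM around the control range, and the difference was 0.19 (95% interval −0.12 to 0.5, adjusted p = 0.341), or 0.35 without replicate 3 (adjusted p = 0.0309). At 24 h E2F4 did not pass the test with any drug, at 66.3 ± 4.54 CPM in the control and 71.5 ± 15.7 CPM with S + D (SD, n = 4), and the unnumbered libraries of Sal and S + D were the highest of their groups at 120 and 94.8 CPM.

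E2F5 (ENSG00000133740, chromosome 8), the other pocket protein partner of this class, was low and did not pass the test with any drug. It was 11.5 ± 1.14 CPM in control cells at 72 h, and, under Sal, Das and S + D, 11.6 ± 1.98, 10.7 ± 0.766 and 10.4 ± 1.76 CPM (SD, n = 4). The 95% intervals of its log2 fold changes at 72 h ran from −0.32 to 0.31 with Sal, −0.42 to 0.2 with Das and −0.47 to 0.16 with S + D. At 24 h all 4 Sal libraries, 6.78 to 7.96 CPM, lay below the controls at 8.66 to 10.6 CPM, with an adjusted p of 0.0559. RBIS, on the opposite strand, shares 16.536% of the exon bases of E2F5 in the annotation and rose with S + D at 72 h (log2 0.83, adjusted p = 0.00102). Whether the counting used the strand is not given in the sources used here, so reads of the genes may not be separable.

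E2F6 (ENSG00000169016, GRCh37 chr2:11584501-11606303, minus strand), the Polycomb-associated repressor, fell with Sal at 72 h. It was 14.1, 9.81, 10.7 and 9.84 CPM in the control, 7.04, 6.13, 5.25 and 6.16 CPM with Sal, and 9.32, 8.84, 8.22 and 6.98 CPM with S + D. Both drug groups lay wholly below the control, and they overlapped each other only between the unnumbered Sal library and replicate 3 of S + D. It fell by 0.87 on the log2 scale with Sal (SE 0.16, adjusted p = 0.000138), and the difference with S + D was −0.43 (SE 0.16, adjusted p = 0.0239). The S + D difference passed in 2 of 8 alternative fits. These had a term for the unnumbered libraries (adjusted p = 0.00293) or a replicate block (adjusted p = 0.00562). In the numbered libraries alone it did not pass (adjusted p = 0.0305). The difference between S + D and Sal, 0.44, did not pass the test (adjusted p = 0.104).

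E2F7 (ENSG00000165891, GRCh37 chr12:77415028-77459349, minus strand), an atypical repressor, had the largest fold change of the 10 genes with each of Sal and S + D at both times. It stood at 22.9, 18.9, 18.9 and 18.5 CPM in control cells at 72 h, at 5.44, 2, 1.86 and 1.56 CPM with Sal, and at 1.52, 0.512, 0.995 and 0.805 CPM with S + D, the last from 16 to 54 counts per library. The control, Sal and S + D groups did not overlap, and S + D was lowest. The log2 fold change was −2.86 with Sal (SE 0.45, adjusted p = 3.1e-05) and −4.37 with S + D (SE 0.5, adjusted p = 8.55e-07), where the ratio of mean CPM was 20.7. With Das the libraries split, at 8.45, 4.97 and 5.36 CPM for the unnumbered one, replicate 1 and replicate 2 and 20.8 CPM for replicate 3. The Das difference was −1.01 (95% interval −1.89 to −0.12, adjusted p = 0.0728), and without replicate 3 it was −1.65 (adjusted p = 0.00151). Leaving out each of the 8 libraries in turn gave −1.65 to −0.77. The highest adjusted p was 0.204, without replicate 1 of Das.

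At 24 h the order of E2F7 was already graded. It was 29.3, 31.8, 28.6 and 28.3 CPM in the control, 13.3, 21.6, 21.9 and 17.4 CPM with Sal, 10.4, 12.3, 12.6 and 13.8 CPM with Das, and 7.53, 5.97, 5.43 and 5.3 CPM with S + D. Sal and Das overlapped each other, and both lay between control and S + D. E2F7 fell by 0.68 with Sal (SE 0.16, adjusted p = 0.00823), by 1.25 with Das (SE 0.16, adjusted p = 3.42e-05) and by 2.25 with S + D (SE 0.16, adjusted p = 3.65e-08) on the log2 scale. The Sal call at 24 h was lost on leaving out any of 6 of the 8 libraries, with adjusted p from 0.0168 to 0.029, and in a fit of all 32 libraries (adjusted p = 0.205).

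E2F8 (ENSG00000129173, GRCh37 chr11:19245610-19263167, minus strand), the other atypical repressor, was 32.8, 41.9, 37.9 and 38.7 CPM in control cells at 72 h. It was 12.6, 12.7, 12.3 and 16.1 CPM with Sal and 6.88, 5.47, 7.25 and 7.96 CPM with S + D, while Das gave 20.2, 17.6, 21.3 and, in replicate 3, 42.5 CPM. Control, Sal and S + D were separate, and 3 Das libraries lay below every control while replicate 3 lay above them all. The log2 fold changes were −1.51 with Sal (SE 0.22, adjusted p = 1.43e-05), −2.47 with S + D (SE 0.23, adjusted p = 1.09e-07) and −0.58 with Das (SE 0.22, adjusted p = 0.0482), the last being −0.93 without replicate 3 (adjusted p = 9.88e-05). Leaving out each of the 8 libraries in turn gave −0.93 to −0.42 with Das. The highest adjusted p was 0.175, without replicate 1 of Das. At 24 h E2F8 fell by 1.07 with Das (SE 0.14, adjusted p = 4.68e-05) and by 1.38 with S + D (SE 0.14, adjusted p = 1.26e-06). With Sal at 24 h every library, 28 to 44.8 CPM, lay below every control, 46.3 to 58 CPM. The Sal difference was −0.44 (adjusted p = 0.0425), and −0.35 in the numbered libraries (adjusted p = 0.00018).

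TFDP1 (ENSG00000198176, GRCh37 chr13:114239036-114295788, plus strand), which encodes the main DP partner, DP1, fell with S + D at both times and with Sal at 72 h. It was 306, 300, 294 and 301 CPM in the control at 24 h and 200, 200, 203 and 195 CPM with S + D, without overlap. Sal, at 243 to 276 CPM, and Das, at 239 to 268 CPM, also lay below all controls and above all S + D libraries. S + D changed it by −0.56 on the log2 scale (SE 0.06, adjusted p = 2.47e-06), and with Sal and Das it was −0.22 and −0.23 (adjusted p = 0.0209 and 0.0127, and 0.00178 and 0.00286 in the numbered libraries). At 72 h TFDP1 fell by 0.72 with Sal (SE 0.13, adjusted p = 0.000114) and by 0.64 with S + D (SE 0.13, adjusted p = 0.000332), from 269 ± 13.8 CPM to 166 ± 35.4 and 175 ± 12.6 CPM (SD, n = 4). Das, at 192 to 248 CPM, lay below every control at 72 h with a difference of −0.34 (adjusted p = 0.0498, and 0.00935 in a fit of all 32 libraries).

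TFDP2 (ENSG00000114126, GRCh37 chr3:141663270-141868386, minus strand), which encodes the second partner, DP2, fell only at 72 h. At 24 h it was 71 ± 7.53 CPM in the control and 70.3 ± 9.1 CPM with S + D (SD, n = 4). At 72 h it was 75.2, 89.7, 88.2 and 81.2 CPM in the control, 52.3, 46, 51.4 and 54.6 CPM with Sal and 49.5, 43.3, 50.8 and 49.2 CPM with S + D. Sal and S + D overlapped each other and lay below every control. It fell by 0.73 on the log2 scale with Sal (SE 0.12, adjusted p = 4.19e-05), fell by 0.81 with S + D (SE 0.12, adjusted p = 1.29e-05) and was at −0.12 with Das (adjusted p = 0.448), or −0.24 without replicate 3 (adjusted p = 0.0664).

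**Figure D2:**
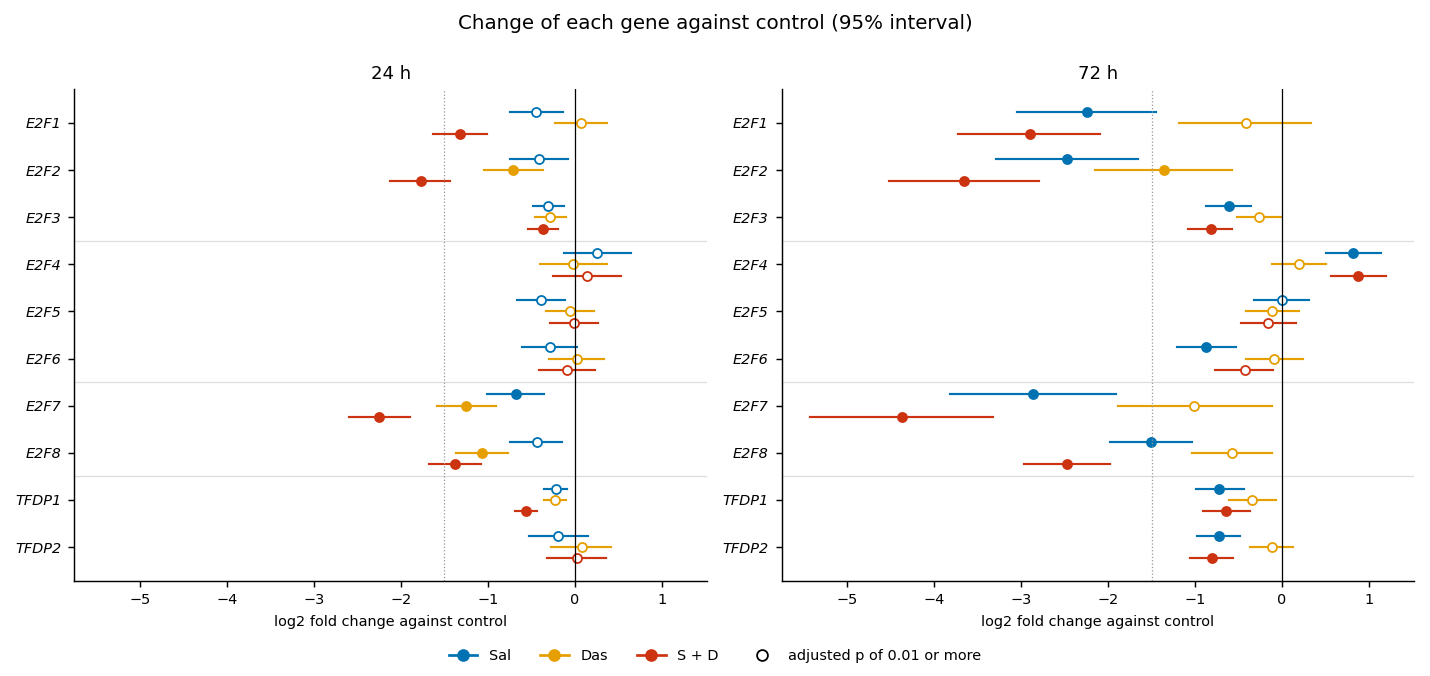
The log2 fold change of each gene against control (horizontal axis) is shown with its 95% interval for Sal, Das and S + D at 24 h (left) and 72 h (right). Filled points had an adjusted p under 0.01 in edgeR, open points did not, and the dotted line marks a fall of 1.5. E2F7 reached −4.37 with S + D at 72 h, and E2F4 was the only gene whose called points lay to the right of 0.

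Counted over the 10 genes, a call was an adjusted p under 0.01. At 24 h Sal lowered 1 member, where 2.23% of all genes tested were called lower. Das lowered 3, against 6.88% of all genes, and S + D lowered 6, against 16.5%, with none called higher, against 17.1%. In the numbered libraries alone Sal lowered 6 members at 24 h (10.9% of all genes) and Das 5 (18.7%). At 72 h Sal lowered 8 members and raised 1, where 26.8% and 26.3% of all genes were called lower and higher, and S + D lowered 7 and raised 1, against 27.9% and 27%. Das at 72 h lowered 1, against 9.36% of all genes, and without its replicate 3 it lowered 3, against 13.2%. With the added cutoff of a log2 fold change past 1.5, E2F2 and E2F7 passed with S + D at 24 h (6.06% of all genes), and E2F1, E2F2, E2F7 and E2F8 passed with Sal (18.7%) and with S + D (20.2%) at 72 h.

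S + D was compared with each single drug directly. At 24 h S + D was lower than Sal for E2F1, E2F2, E2F7, E2F8 and TFDP1, 5 of 10 members against 7.06% of all genes, with log2 differences of −0.87, −1.36, −1.57, −0.94 and −0.33. E2F5 was higher than with Sal by 0.38 (adjusted p = 0.0444, and 0.0048 in the numbered libraries). S + D was lower than Das for E2F1, E2F2, E2F7 and TFDP1, 4 members against 4.46% of all genes, with differences of −1.39, −1.07, −1 and −0.33. Fitted with all 32 libraries, only E2F1 kept the call against Das, with adjusted p of 0.0208 for E2F2, 0.047 for E2F7 and 0.0224 for TFDP1, and E2F1 lost the call against Sal (adjusted p = 0.0274). For E2F8 the difference from Das was −0.31 (95% interval −0.61 to −0.01, adjusted p = 0.151, and 0.000174 in the numbered libraries). At 72 h S + D was lower than Das for 6 members (17.7% of all genes) and higher for 1, E2F4 (14.3%), with E2F7 at −3.36, E2F1 at −2.48, E2F2 at −2.29 and E2F8 at −1.89.

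Between S + D and Sal at 72 h no member was called, where 3.01% of all genes were called in either direction. The differences were nevertheless of some size, −1.51 for E2F7 (95% interval −2.53 to −0.48, adjusted p = 0.0649), −1.18 for E2F2 (−1.99 to −0.37, adjusted p = 0.0663) and −0.96 for E2F8 (−1.43 to −0.48, adjusted p = 0.0138). E2F8 was called in 6 of 8 alternative fits, DESeq2 among them (adjusted p = 0.00142). It was not called in the numbered libraries (adjusted p = 0.0302) or on leaving out any of the 8 libraries. E2F2 was called in 1 of the 8 alternative fits, with a replicate block (adjusted p = 0.00818). For E2F4 the difference was 0.05 (adjusted p = 0.885). In E2F7 and E2F8 every S + D library lay below every Sal library.

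The interaction of the drugs asks whether S + D differed from the sum of the log2 effects of Sal and Das. At 24 h the term was −0.94 for E2F1 (95% interval −1.37 to −0.51, adjusted p = 0.0727) and −0.65 for E2F2 (−1.13 to −0.18, adjusted p = 0.377). No member was called, and 0.0306% of all genes were. In the numbered libraries 3 members were called lower, where 4.5% of all genes were. These were E2F1 (−0.88, adjusted p = 4.49e-06), E2F2 (−0.89, adjusted p = 3.85e-06) and E2F7 (−0.7, adjusted p = 0.00218). At 72 h no member was called, against 7.52% of all genes, and the intervals were wide, from −1.31 to 0.84 for E2F1 and from −1.84 to 0.84 for E2F7. Without replicate 3 of Das the terms were 0.05 for E2F1 and 0.16 for E2F7.

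**Figure D3:**
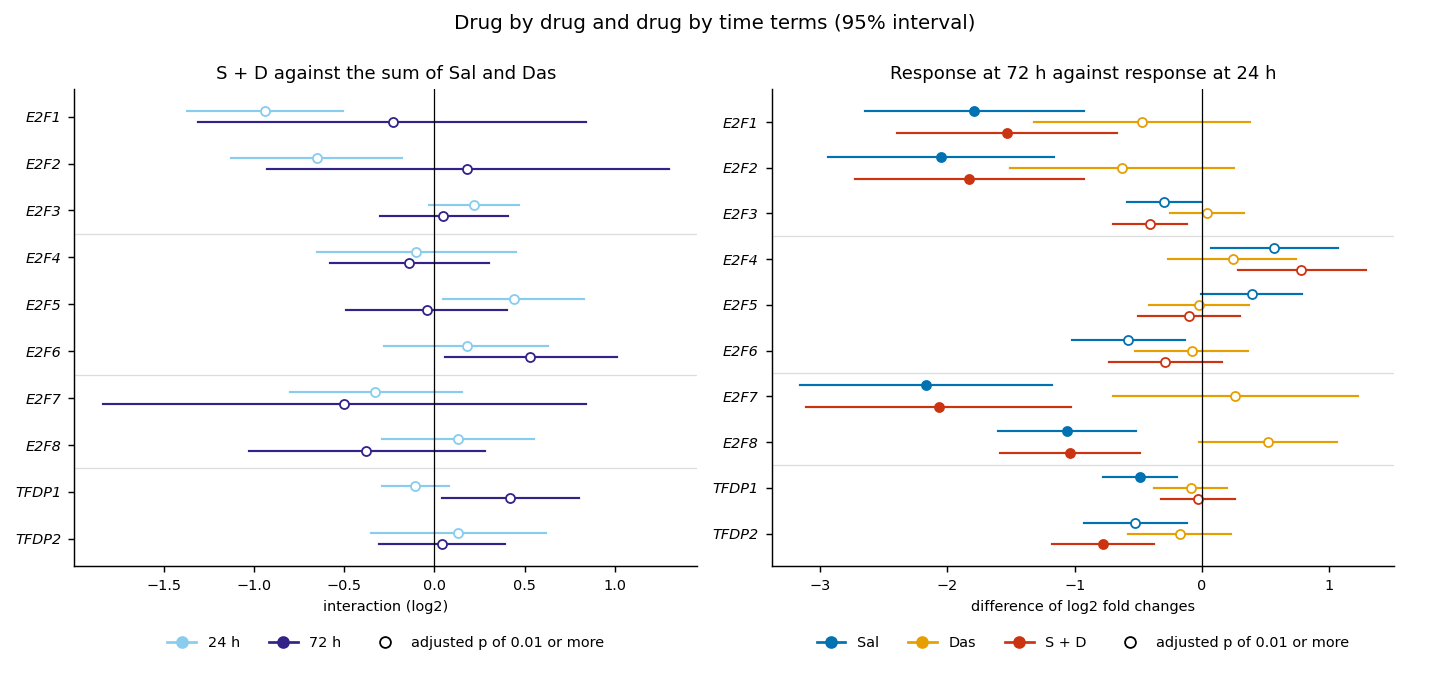
Left, the interaction of Sal and Das for each gene on the log2 scale at 24 h and 72 h, with 95% intervals. Right, the log2 fold change at 72 h less that at 24 h for each drug. Filled points had an adjusted p under 0.01. E2F1 and E2F2 lay below 0 at 24 h on the left at −0.94 and −0.65, and on the right the Sal and S + D values of E2F1, E2F2 and E2F7 lay between −1.53 and −2.17.

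The time comparison used all 32 libraries in 1 fit. In control cells no member differed between 72 h and 24 h, where 2.76% of all genes did, and the largest estimates were −0.58 for E2F7 (adjusted p = 0.33) and −0.52 for E2F8 (adjusted p = 0.0875). The response to Sal was lower at 72 h than at 24 h for 5 members, against 13.7% of all genes. These were E2F1 (−1.79), E2F2 (−2.05), E2F7 (−2.17), E2F8 (−1.06) and TFDP1 (−0.49), with adjusted p from 0.000609 to 0.00852. In the numbered libraries 7 members were lower, against 22.4% of all genes. E2F4 was higher there (0.78, adjusted p = 0.00311, against 0.57 and 0.0733 over all libraries), where 16.9% of all genes were called higher. The members lower only in the numbered libraries were E2F6 (−0.63, adjusted p = 0.00166, against 0.0418) and TFDP2 (−0.68, adjusted p = 0.000292, against 0.0389).

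The response to S + D was lower at 72 h for E2F1 (−1.53), E2F2 (−1.83), E2F7 (−2.07), E2F8 (−1.04) and TFDP2 (−0.78), 5 members against 10.1% of all genes. In the numbered libraries E2F3 was also lower (−0.4, adjusted p = 0.00598, against 0.0322 over all libraries) and E2F4 higher (0.92, adjusted p = 0.00101, against 0.0177). There 17.9% of all genes were called lower and 13.7% higher. The response to Das changed for none, where 0.226% of all genes were called in either direction. Das had lowered E2F7 and E2F8 at 24 h, and the change of these responses by 72 h was 0.26 (adjusted p = 0.871) and 0.52 (95% interval −0.02 to 1.06, adjusted p = 0.379). Without replicate 3 of Das at 72 h these values were −0.4 and 0.15. The Sal call of TFDP1 was lost on leaving out any of 13 libraries, and with S + D that of E2F1 on leaving out any of 12, that of E2F8 any of 4 and that of TFDP2 1.

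With Sal and with S + D at 72 h, where the activators fell and E2F4 rose, the make-up of the E2F transcripts differed from that of control cells. With Das at 72 h the share of the activators, 53.2 to 70.5%, overlapped the control at 68.8 to 72.6%. Of the summed CPM per kb of the 8 E2F genes, E2F1, E2F2 and E2F3 together held 70.3 ± 1.64% in control cells at 72 h, and 39.9 ± 7.17%, 61.6 ± 7.95% and 32.8 ± 3.5% under Sal, Das and S + D (SD, n = 4). E2F4 held 13.6 ± 0.882%, 46.9 ± 6.44%, 22.8 ± 8.47% and 55.5 ± 3.13% in the same groups. The log2 ratio of E2F4 to the sum of the 3 activators was −2.48, −2.36, −2.42 and −2.23 in the control libraries and 0.44, 0.84, 0.81 and 0.97 with S + D. Per kb, E2F4 therefore exceeded the 3 activators together in all 4 S + D libraries and in 3 of the 4 Sal libraries, the exception being the unnumbered one at −0.34. This rests on the gene lengths. In plain CPM, replicate 3 of Sal had E2F4 at 76.3, which did not exceed the sum of E2F1 at 12.2, E2F2 at 15.1 and E2F3 at 57.2. With Das the ratio ran from −2.61 in replicate 3 to −0.76 in replicate 1. These shares are descriptions with no test.

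**Figure D4:**
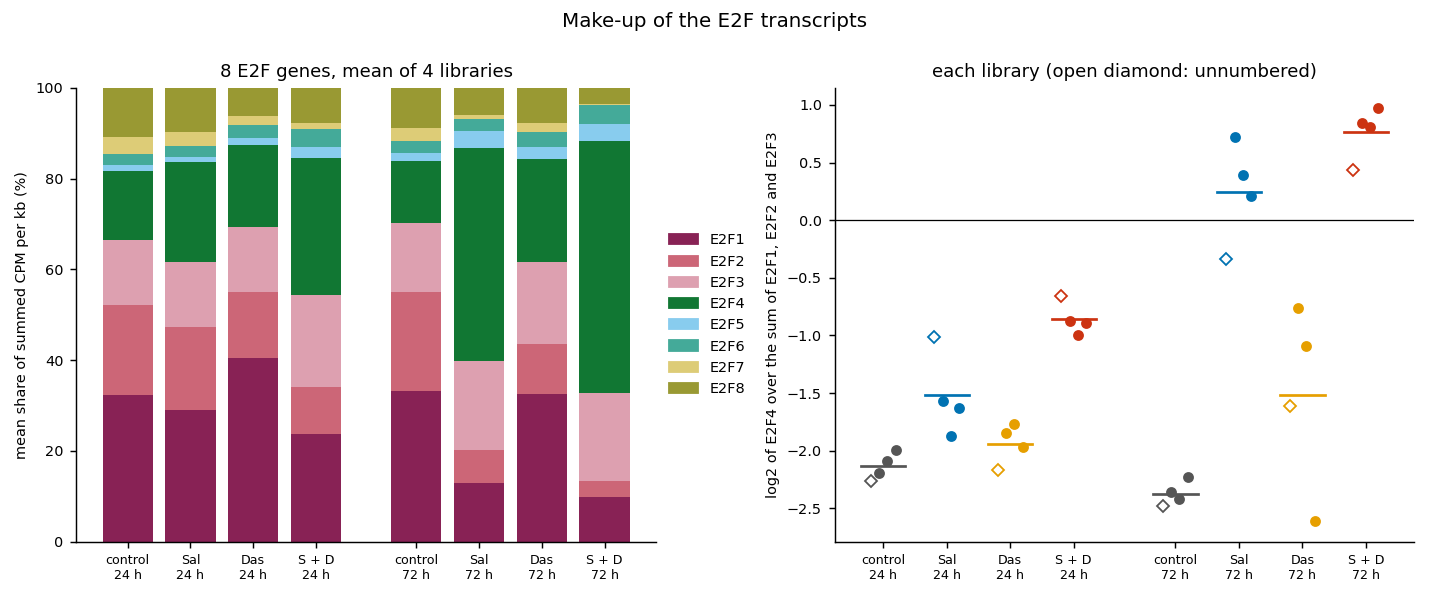
Left, stacked bars give the mean percent of the summed CPM per kb of the 8 E2F genes in each group. Right, points give the log2 ratio of E2F4 to the sum of E2F1, E2F2 and E2F3 in each library, open diamonds the unnumbered one and bars the mean. E2F4 held 13.6% in control cells at 72 h and 55.5% with S + D, where all 4 libraries lay above 0.

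At 24 h the shares lay closer together. The 3 activators held 64.8 to 69.8% in the control libraries and 53 to 55.7% with S + D, and the log2 ratio of E2F4 to the activators was −2.13 ± 0.121 and −0.855 ± 0.142 (SD, n = 4) while E2F4 itself did not pass the test. In CPM per kb with S + D at 72 h, TFDP1 stayed first at 46.7 ± 3.37 and E2F4 was second at 26.6 ± 1.13, ahead of E2F3 at 9.26 ± 0.52 and E2F1 at 4.76 ± 1.84. E2F2, E2F5, E2F6 and E2F8 then lay together between 1.67 and 2.05 CPM per kb with overlapping neighbours, and E2F7 was last at 0.152 ± 0.0671 CPM per kb. E2F1 and TFDP2, at 4.05 ± 0.283, overlapped.

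The pocket proteins that bind these factors went different ways. RBL1, the p107 gene and itself an E2F target, fell by 1.61 with S + D at 72 h (SE 0.21, adjusted p = 3.52e-06) and by 1.6 with Sal, while RBL2, the p130 gene of resting cells, rose by 0.66 (SE 0.13, adjusted p = 0.000271) and 0.63 on the log2 scale. With Das the values were −0.18 (adjusted p = 0.519, or −0.42 and 0.056 without replicate 3) and 0.41 (adjusted p = 0.0224). RB1, the retinoblastoma gene, which this line is known to have lost, was between 0.447 and 1.8 CPM in all 32 libraries, 15 to 71 counts, against 8.04 to 42.3 CPM for RBL1 and 131 to 320 CPM for RBL2. Its difference with S + D at 72 h was −0.02 (adjusted p = 0.964).

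Of 13 tested genes of cyclin D, CDKs and CDK inhibitors, the kinases that release E2F and their brakes, S + D at 72 h lowered 5 and raised 2, where 27.9% and 27% of all genes were called lower and higher, with a median log2 fold change of −0.05 beside 0.01 over all genes. CCND1, cyclin D1, fell by 3.99 with S + D (SE 0.19, adjusted p = 9.71e-11), by 2.54 with Sal and by 2.13 with Das (adjusted p = 2.44e-07). CDK2 fell by 1.75 with S + D (SE 0.17), and SKP2, which targets the inhibitor p27 for degradation, by 1.73. CDKN1A, the p21 gene, rose by 1.34 with S + D (SE 0.23, adjusted p = 5.61e-05) and by 1.12 with Sal (adjusted p = 0.000313), and was at −0.18 with Das (adjusted p = 0.568), or −0.04 without replicate 3. CCND2 had 0 counts in every library.

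All 24 G1/S targets of E2F were called lower with S + D at 72 h (27.9% of all genes), with a median of −1.78, and 22 with Sal (26.8% of all genes, median −1.3) and 13 with Das (9.36% of all genes, median −0.78), where the median of all genes was 0.01, 0 and 0.02. The Das count was 8 in the numbered libraries (11.5% of all genes) and 21 without replicate 3 of Das (13.2%). RRM2, a subunit of ribonucleotide reductase, fell by 5.46 with S + D (SE 0.5, adjusted p = 8.69e-08), CCNE2, cyclin E2, fell by 4.21 (SE 0.41, adjusted p = 1.44e-07), and CDT1, the replication licensing factor, fell least by 0.83 (SE 0.16, adjusted p = 0.000166). At 24 h Sal lowered 6 of the 24 (2.23% of all genes), Das 16 (6.88%) and S + D 21 (16.5%, median −1.22), and in the numbered libraries they lowered 14 (10.9%), 22 (18.7%) and 24 (29.4%).

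All 16 G2/M genes were lower with Sal (median −2.65) and S + D (median −3.07) at 72 h and 1 with Das (median −0.81), or 13 without replicate 3 of Das, against the same shares of all genes. At 24 h Sal lowered 3 of the 16 (2.23% of all genes), and 16 in the numbered libraries (10.9%). Das (6.88%) and S + D (16.5%) lowered 16 each at 24 h. CENPF, of the kinetochore, was at −3.96 and KIF20A, a mitotic kinesin, at −3.91 with S + D at 72 h, and AURKA, a mitotic kinase, fell least by 1.4.

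**Figure D5:**
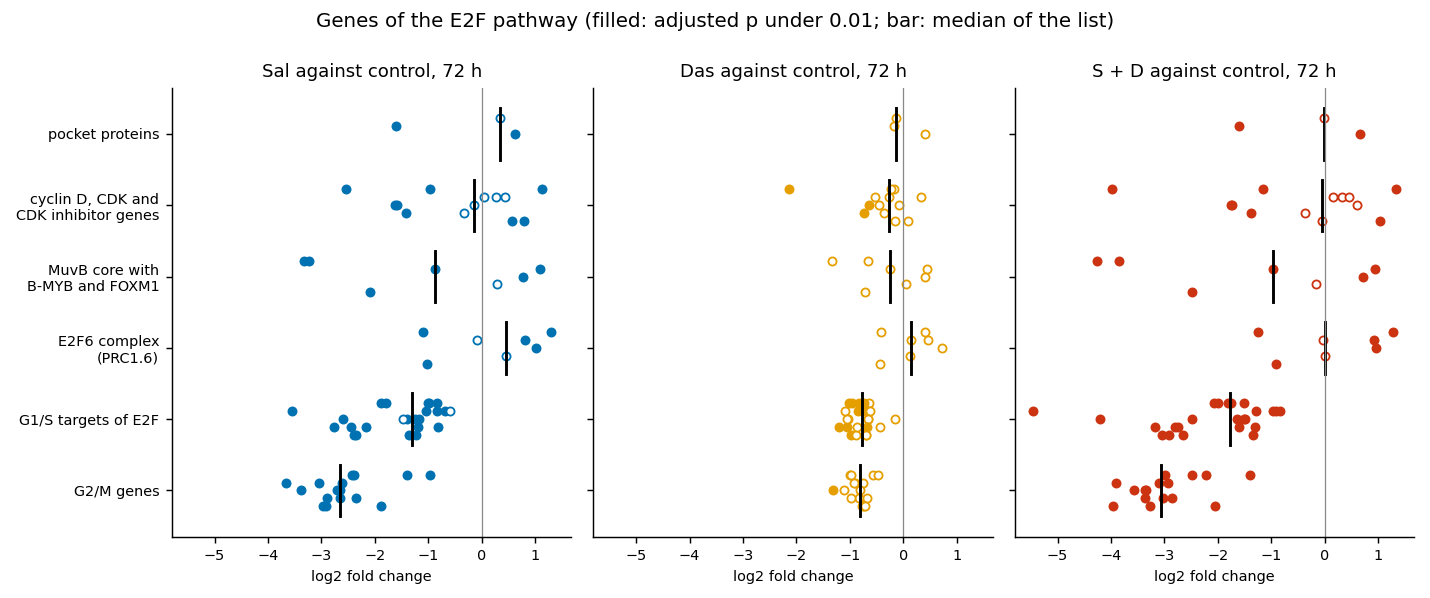
Each point is the log2 fold change of 1 gene at 72 h (horizontal axis) with Sal, Das or S + D, grouped by role, filled where the adjusted p was under 0.01, and the black bar is the median of the list. The medians of the G1/S and G2/M lists with S + D were −1.78 and −3.07, while those of pocket proteins, cyclin D and CDK genes and the E2F6 complex lay between −0.05 and 0.01.

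Among the MuvB core genes with MYBL2 and FOXM1, which form the DREAM complex with E2F4 and p130 or the activating complexes of G2, S + D at 72 h lowered 4 and raised 2 of 7, beside the 27.9% and 27% of all genes. MYBL2, a classical E2F target, fell by 4.27 (SE 0.46, adjusted p = 4.93e-07) and FOXM1 by 3.85 (SE 0.38, adjusted p = 1.84e-07), while LIN37, a core subunit, rose by 0.95 (SE 0.21, adjusted p = 0.000757). LIN37 has 53.972% of its exon bases in common with neighbouring annotated genes and CCNE2 37.139%, so reads may not be separable there either. The same holds, with smaller shares, for STAG3 (25.252%), CDK2 (16.825%), RBL2 (16.4%), FOXM1 (15.898%) and CCND1 (10.439%). With Das at 72 h none of the 7 was called (19.9% of all genes in either direction), and 4 were lower without its replicate 3 (13.2% of all genes lower).

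In the Polycomb complex of E2F6, 2 of 7 genes were lower and 3 higher with S + D at 72 h, beside 27.9% and 27% of all genes, with CBX3 at −1.25 and PCGF6 at −0.92 against RING1 at 1.28, and the median was 0.01. Of 3 germline genes that E2F6 is known to keep silent, SMC1B and STAG3 stayed between 0.056 and 1.4 CPM and were not called with any drug, and SLC25A31 was at most 0.0597 CPM. Epithelial and EGFR genes of the line moved with the same treatments, with 4 of 6 lower with S + D at 72 h beside 27.9% of all genes (KRT19 −2.3, KRT8 −1.86, EGFR −0.67), and COL1A1, a gene of stromal cells, was higher at 1.62. Their part in the E2F results was not tested.

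Genes whose log2 CPM ran most like each member over the 8 group means were listed from 13453 candidates, as Pearson r over 8 points that share libraries and drugs, with no p. E2F7 ran with RRM2 (r = 0.999), STARD7 and GRHL2 (both 0.998), and E2F8 with KIF11, a mitotic kinesin (0.997), NEMP1 and ZNF695 (both 0.996). E2F1 ran with DTNBP1 (0.993), RIBC2 (0.992) and WDR76 (0.991), E2F2 with FAT1 and ENSG00000250899 (both 0.997) and TEAD4 (0.996), and E2F3 with CAPRIN1 (0.997), MSL3 (0.994) and CDC42SE1 (0.992). E2F4 ran with ABCF3 (0.994), CLCN7 (0.992) and WDR74 (0.991). E2F6 was nearest to SGSM2 (0.989), KLRG2 (0.987) and TMEM14A (0.986), and E2F5 to KTN1-AS1 (0.964), IQCH (0.937) and ZNF121 (0.921), the loosest of the 10. TFDP1 ran with SMPD2 (0.998), RABL6 (0.997) and CDCA4 (0.996), and TFDP2 with GPD1 (0.992), GRSF1 (0.991) and CASP1 (0.989).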

How the data were processed

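RNA was measured in 32 libraries of MDA-MB-468. Per the study's methods and the submitters' processing notes, reads were demultiplexed with bcl2fastq 2.19 and aligned to GRCh37 with STAR 2.5.2, and the authors called genes with DESeq2 and computed FPKM with Cufflinks 2.1.1 (FPKM not used here). The authors deposited raw counts per Ensembl gene as whole numbers. The counting program, its annotation and its use of strand are not given in the sources used here.

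Groups came from the sample titles and characteristics. Symbols and coordinates came from GENCODE lifted to GRCh37 (46537 of 48804 identifiers matched; of the genes listed, PECAM1 did not). Counts were fitted with edgeR 4.0.16 in R 4.3.3 (TMM, filterByExpr with a minimum count of 10, quasi-likelihood test, Benjamini-Hochberg adjustment over all genes tested), with the 16 libraries of a time point (16357 genes at 24 h, 16682 at 72 h) or, for time, all 32 (17227 genes). All 10 members were tested in every fit. A call needed an adjusted p under 0.01, and the study's second cutoff, a log2 fold change past 1.5, was applied where stated. SE is the log2 fold change divided by the root of the F statistic. CPM used TMM library sizes. The fit was also run on simulated counts with 1 common spread for all genes and no deviating libraries. That run says nothing about the effect of the unnumbered libraries or of replicate 3 of Das. Counts of pseudogenes of the members reached at most 7 per library. Members, lists and tests were chosen with earlier results of these data known. Named were all members and, of each list, the genes with the 2 lowest and the 1 highest called change with S + D at 72 h, with RB1, RBL1, RBL2, CCND1, CDKN1A and SKP2 always, and the 3 genes most like each member. Alternatives were other normalization (RLE) and filters, DESeq2 1.42.0, other sets of libraries, a term for the unnumbered libraries, a replicate block, and leaving out each library. The gene lists without replicate 3 of Das at 72 h were added after seeing the data.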

Additional observations from a re-analysis of the deposited data

Results flagged for a closer look

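Each of the 10 members was checked in each of the 8 groups, which gave 80 sets of 4 values. In 19 of the 80, 1 library stood apart, by its gap to the nearest other library relative to the range of the group. Chance gives about 1 in 20 for a single set. The 80 sets share the same 32 libraries and many members vary together, so the 19 are not independent and cannot be set against that rate. In 16 of the 19 the library was an unnumbered one. The unnumbered library was the highest for E2F1 in the control at 24 h (122 CPM), Sal at 72 h (38.9 CPM) and S + D at 72 h (20.2 CPM), for E2F2 in the control (155 CPM) and S + D (54 CPM) at 24 h, for E2F3 in the control at 24 h (108 CPM) and for E2F4 with S + D at 24 h (94.8 CPM). It was also the highest for E2F7 in the control (22.9 CPM) and with Sal (5.44 CPM) at 72 h and for TFDP1 with Sal (219 CPM) and S + D (194 CPM) at 72 h. It was the lowest at 24 h for E2F8 in the control (46.3 CPM), Sal (28 CPM) and Das (22.7 CPM), and for TFDP2 with Sal (41.9 CPM) and S + D (56.7 CPM). Replicate 3 was the highest for E2F8 with Sal (16.1 CPM) and with Das (42.5 CPM) and for TFDP2 with Das (97.5 CPM), all at 72 h.

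Of 30 differences between the response at 72 h and that at 24 h, 10 passed the test of the difference itself, as log2 values of the 72 h response less the 24 h response. For Sal these were E2F1 (−1.79), E2F2 (−2.05), E2F7 (−2.17), E2F8 (−1.06) and TFDP1 (−0.49). For S + D they were E2F1 (−1.53), E2F2 (−1.83), E2F7 (−2.07), E2F8 (−1.04) and TFDP2 (−0.78). Over all genes, 13.7% were called lower for Sal, 10.1% lower for S + D and 0.226% in either direction for Das. The Sal call of TFDP1 and the S + D calls of E2F1, E2F8 and TFDP2 were each lost on leaving out at least 1 of the libraries.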

How the results depend on the processing

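The number of members called was recomputed under each alternative, and no called value changed sign. The share of all genes is given where it was computed. In this section a count without that share is not a result about the members. Of 160 estimates, 29 that were not called changed sign under at least 1 alternative, among them the Das response of E2F7 over time (0.26, and −0.4 without replicate 3 of Das at 72 h). Das at 72 h without its replicate 3 was added for the gene lists after seeing the data. Size factors by RLE changed no count past 1.5 times. With the numbered libraries only, the count became 6 with Sal and 5 with Das at 24 h, where 10.9% and 18.7% of all genes were called lower. It became 3 for the interaction at 24 h (4.5% of all genes lower) and 8 for the Sal response over time (39.3% in either direction). With a term for the unnumbered libraries it became 7, 5 and 2 for Sal, Das and the interaction at 24 h and 1 for S + D against Sal at 72 h, and with DESeq2 3, 5, 1 and 1. Without a filter on low counts, Sal at 24 h had 0 calls and S + D against Sal at 72 h 1. With all 32 libraries in 1 fit the counts were 0 for Sal at 24 h, 1 for S + D against Das at 24 h, 2 for Das at 72 h and 1 for S + D against Sal at 72 h, and with only the groups compared 0 for Sal at 24 h, 0 for Das at 72 h and 1 for S + D against Sal at 72 h. The single S + D call against Sal at 72 h was E2F8. With both cutoffs the counts were 0, 0 and 2 for Sal, Das and S + D at 24 h (0.721%, 2.49% and 6.06% of all genes). They were 1 and 0 for S + D against Sal and Das at 24 h (2.04% and 0.318%). At 72 h they were 4, 0 and 4 for Sal, Das and S + D (18.7%, 5.02% and 20.2%), and 4 for S + D against Das (8.85%). The cause of these changes was not tested.

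With a replicate block the count was 6 for Sal, 5 for Das and 1 for the interaction at 24 h, and 2 for Das and 2 for S + D against Sal at 72 h. The numbers did not pair samples, since among numbered libraries the median correlation of deviations was −0.03 at 24 h and 0.01 at 72 h for the same number and 0.01 and 0 for different numbers. The unnumbered libraries correlated with each other at 0.68 to 0.76 at 24 h and 0.62 to 0.72 at 72 h.

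Leaving out 1 library at a time, the count ranged from 0 to 1 for Sal at 24 h, 2 to 3 for Das at 24 h, 6 to 6 for S + D at 24 h, 0 to 3 for Das at 72 h, 0 to 1 for the interaction at 72 h and 3 to 5 for the S + D response over time. The 1 call of the interaction at 72 h was TFDP1 (0.58, adjusted p = 0.00928) without the unnumbered Sal library, and the S + D response fell to 3 without replicate 3 of S + D at 24 h or replicate 1 at 72 h. The least deep member was E2F7 with S + D at 72 h, at 16 to 54 counts.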

Other observations

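Members were also compared with each other as Pearson r of log2 CPM over the 8 group means, points that share libraries and drugs, with no p. E2F2, E2F7 and E2F8 ran closest together, at 0.99 for E2F2 with E2F7, 0.99 for E2F7 with E2F8 and 0.98 for E2F2 with E2F8. E2F1 ran with E2F2 and with E2F7 at 0.96. E2F4 ran against the others, from −0.68 with TFDP1 to −0.98 with TFDP2, except E2F5 at −0.1, and E2F5 stood between −0.43 and −0.02 with every member.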
